A study of Mus musculus with 6 samples.

Results

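Integrins are cell-surface receptors, each made of an alpha and a beta chain, that bind proteins of the extracellular matrix on the outside of the cell and the actin cytoskeleton on the inside. The chain pair sets the ligand: Itga6 with Itgb1 binds laminin, Itga5 with Itgb1 binds fibronectin, and Itgav with Itgb5 or Itgb8 binds proteins that carry an RGD motif, among them the latent form of TGF-beta. In the oligodendrocyte lineage of rodents, laminin receptors and the partners of Itgav are known for roles in survival and in the formation of myelin membrane. Described here are 10 integrin subunits, Itga3, Itga5, Itga6, Itga7, Itga9, Itgav, Itgb1, Itgb4, Itgb5 and Itgb8, chosen by symbol from the 22057 genes of the table of normalized counts. All 10 had a row and all 10 passed the filter on low values.

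The series compared cultured neural progenitor cells, labelled p53-null, in 2 media. Cells of mice 62, 68 and 69 were kept for 4 days in PDGFA, a platelet-derived growth factor (PDGFA group, n = 3). Cells of the same 3 mice were kept for 4 days in EGF and FGF, epidermal and fibroblast growth factor, with heparin in the medium per the labels' protocol (the EF group, n = 3). All 6 cultures thus carry the same labelled genotype, and the labels do not name the deleted part of the gene. A dose of 20 ug/ml stands after PDGFA in the growth protocol. The libraries were of polyadenylated RNA and held 27270246 to 39601349 reads. Because EGF and FGF were left out where PDGFA was added, every comparison is of the 2 media.

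The cultures differed in more than adhesion genes, and the marker lists show how. Called here means a limma adjusted p under 0.05, as for 39.8% of the 17068 tested genes, 21.8% higher and 18.0% lower. The 7 neural progenitor markers summed to 52970 to 55660 normalized counts in PDGFA and to 76150 to 184400 in EF, and each was read in all 6 libraries. The members went opposite ways, with 3 called higher (Sox2, Prom1 and Hes5) and 3 lower (Nes, Vim and Fabp7): Nes averaged 2575 ± 917 in PDGFA and 33684 ± 13560 in EF, and Sox2 17554 ± 1144 in PDGFA and 11175 ± 2538 in EF. The 6 markers of dividing cells summed to 407.4 to 673.8 in PDGFA and to 38830 to 77990 in EF. The 7 oligodendrocyte markers summed to 285400 to 361000 in PDGFA and to 2449 to 3864 in EF, and the 6 astrocyte markers to 136900 to 209000 in PDGFA and to 40940 to 69060 in EF. Of the astrocyte markers, 4 were called higher (Gfap, Aqp4, S100b and Aldoc), Gfap at 90999 ± 17540 in PDGFA and 36.1 ± 27.2 in EF. The other markers, Aldh1l1 and Slc1a3, were not called and made up most of the EF sum. Aldh1l1 averaged 6634 ± 3389 in PDGFA and 8816 ± 2843 in EF, and Slc1a3 33509 ± 6919 in PDGFA and 37348 ± 13580 in EF. In such bulk RNA, fewer cells of a type and less RNA per cell cannot be told apart, and the part of these shifts in the integrin values below was not tested. Of the 7 microglial and leukocyte markers, only Csf1r and P2ry12 had a row in the table, with sums of 5.73 to 8.96 in PDGFA and 11.5 to 44.7 in EF. Csf1r was not tested, and P2ry12 was called lower in PDGFA (adjusted p = 0.0484). The 3 fibroblast and meningeal markers in the table summed to 727.6 to 925.1 in PDGFA and to 74.2 to 149.7 in EF. That sum was carried by Pdgfrb (814.7 ± 95.8 in PDGFA and 21.9 ± 20.3 in EF), which is also in the pericyte list, while the collagens were lower in PDGFA, Col1a1 at 19.0 ± 5.22 against 62.3 ± 26.1 in EF (adjusted p = 0.0183) and Col1a2, not tested, at 1.83 ± 1.79 against 15.9 ± 3.90 in EF. The 3 endothelial markers in the table summed to 438.8 to 699.7 in PDGFA and to 97.2 to 456.0 in EF, and the 6 pericyte and mural markers to 5929 to 7136 in PDGFA and to 2571 to 10290 in EF, so that these sums overlapped. Notch3 made up most of the pericyte and mural sum (5762 ± 559 in PDGFA and 5387 ± 4204 in EF), and Rgs5 was called higher with Pdgfrb (60.3 ± 24.7 in PDGFA and 1.88 ± 3.25 in EF, adjusted p = 0.00275). Of the endothelial markers, Kdr was called higher (517.2 ± 135 in PDGFA and 61.8 ± 27.0 in EF) and Pecam1 lower (9.54 ± 0.840 in PDGFA and 27.4 ± 8.41 in EF). The 6 neuron markers summed to 29110 to 39010 in PDGFA and to 24820 to 30470 in EF. Map2, not called, made up most of that sum (29493 ± 4216 in PDGFA and 26266 ± 3399 in EF). Dcx (4934 ± 941 in PDGFA and 130.8 ± 186 in EF) and Tubb3 (765.2 ± 333 in PDGFA and 187.2 ± 82.1 in EF) were called higher. Rbfox3 and Snap25 were not called, and Stmn2 was not tested. The 6 oligodendrocyte precursor markers summed to 118900 to 195100 in PDGFA and to 79080 to 146000 in EF, with 2 called higher (Sox10 and Gpr17) and 3 lower (Cspg4, Olig1 and Olig2). The EF library of mouse 68 was the highest EF library for each of these markers but Olig2. The gap was wide for Pdgfra, which read 14133 there and 860.9 and 533.1 in the EF libraries of mice 62 and 69, and narrow for Olig1, at 62093 there and 40820 and 49394 in the others. It was also the highest EF library for 5 of the 10 subunits, and where a result for a subunit rests on it, the value without it is given too.

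Of the 10 subunits, 4 fell and 2 rose in PDGFA against EF, and 4 did not pass the test (limma on log2 values, Benjamini-Hochberg adjusted p under 0.05 over 17068 tested genes). Itga5, Itga6, Itgav and Itgb1 were lower, and Itga3 and Itgb4, both read at low levels, were higher. In the table as a whole 39.8% of tested genes passed, 21.8% higher and 18.0% lower, so a count of 6 in 10 has to be read against a large background. The median log2 fold change (here called log2 change, PDGFA minus EF) of the 10 was -0.091, and that of all tested genes -0.009. The groups did not overlap in 7 of the 10 subunits, 3 higher and 4 lower, where 55.5% of all tested genes did not overlap.

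**Figure D1:**
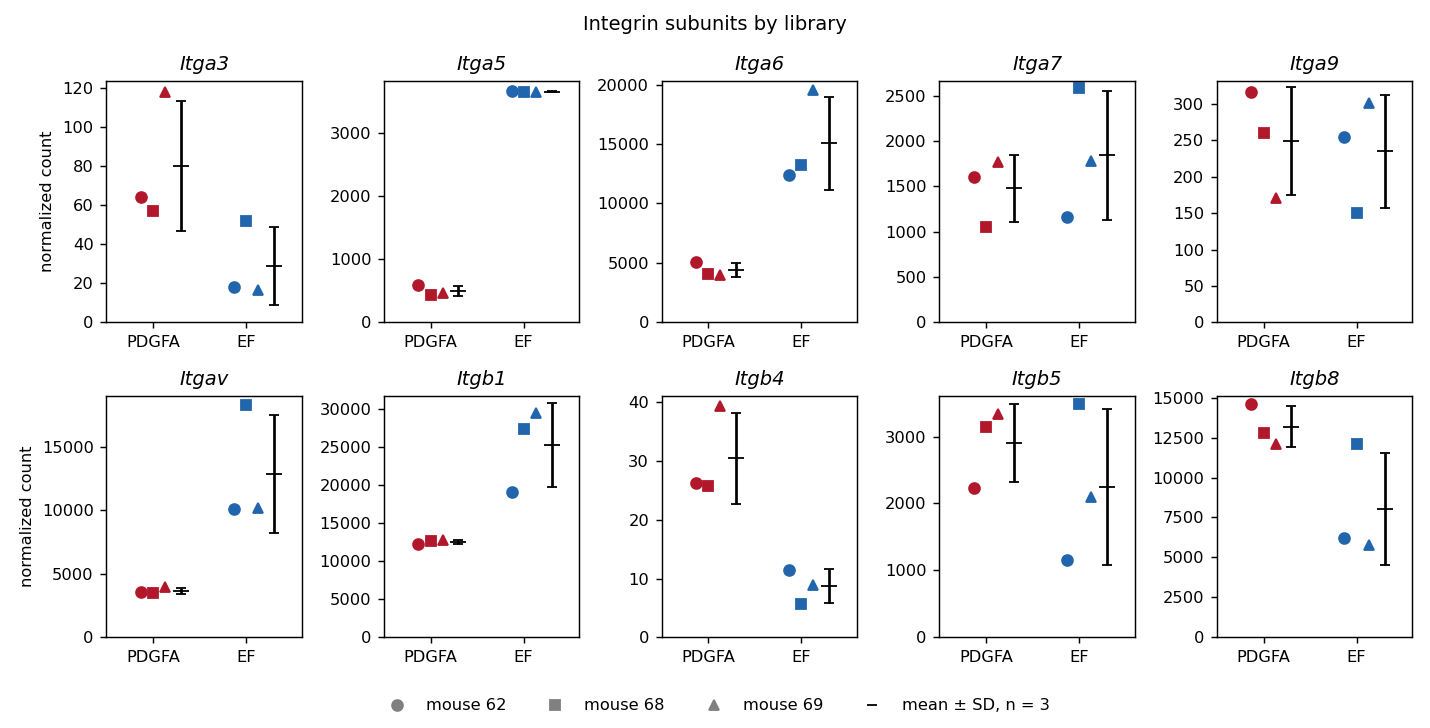
Normalized counts (vertical axes, each from 0) of the 10 integrin subunits in the PDGFA and EF libraries; the symbols mark the mouse and the black bar the mean ± SD of 3 libraries. Itga5, Itga6, Itgav and Itgb1 lie lower in every PDGFA library than in any EF library, and in EF the library of mouse 68 (square) is the highest for Itga3, Itga7, Itgav, Itgb5 and Itgb8.

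Promoter sequences are shown for the 3 falling subunits that have a RefSeq entry, with Itgb8 beside them, a beta chain whose PDGFA libraries all lay above the EF libraries. Each runs from 250 bases before to 50 bases after the start site in RefSeq (build GRCm38.p6), is read 5′ to 3′ on the gene's strand, and has in capitals each match to the GC box GGGCGG, the sequence bound by Sp1 family factors, or to the AP-1 motif TGANTCA, on either strand. The stretches lie at chr15:103366742-103367041 (Itga5, minus strand), chr2:83724147-83724446 (Itgav, plus), chr8:128685404-128685703 (Itgb1, plus) and chr12:119238227-119238526 (Itgb8, minus).
Itga5: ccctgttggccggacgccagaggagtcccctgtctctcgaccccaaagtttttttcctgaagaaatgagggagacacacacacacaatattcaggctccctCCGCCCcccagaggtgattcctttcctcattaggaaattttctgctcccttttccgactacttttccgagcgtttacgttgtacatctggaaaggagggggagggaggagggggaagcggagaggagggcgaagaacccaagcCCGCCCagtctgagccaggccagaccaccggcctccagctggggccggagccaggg
Itgav: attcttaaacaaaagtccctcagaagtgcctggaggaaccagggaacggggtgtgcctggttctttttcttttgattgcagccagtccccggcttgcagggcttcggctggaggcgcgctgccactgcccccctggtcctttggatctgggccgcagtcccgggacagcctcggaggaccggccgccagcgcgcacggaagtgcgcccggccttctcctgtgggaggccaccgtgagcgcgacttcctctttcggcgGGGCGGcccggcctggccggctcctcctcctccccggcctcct
Itgb1: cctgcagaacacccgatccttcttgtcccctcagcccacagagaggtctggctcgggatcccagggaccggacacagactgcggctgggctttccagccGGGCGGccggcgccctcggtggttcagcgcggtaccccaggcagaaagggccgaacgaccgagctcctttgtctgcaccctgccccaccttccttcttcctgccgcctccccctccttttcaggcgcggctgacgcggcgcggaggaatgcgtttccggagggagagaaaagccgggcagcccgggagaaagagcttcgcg
Itgb8: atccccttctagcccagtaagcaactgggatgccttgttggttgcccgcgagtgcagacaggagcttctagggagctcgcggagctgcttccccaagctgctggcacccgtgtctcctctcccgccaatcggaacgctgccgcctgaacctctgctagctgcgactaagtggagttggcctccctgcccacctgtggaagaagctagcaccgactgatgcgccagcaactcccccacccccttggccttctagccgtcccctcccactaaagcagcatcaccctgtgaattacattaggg
The Itga5 stretch holds 2 GC boxes, those of Itgav and Itgb1 hold 1 each, and that of Itgb8 holds 0; none of the 4 holds the AP-1 letters. Of 32851 RefSeq promoter entries of the same length, 35.7% hold a GC box and 7.81% the AP-1 motif. The matches are a description of these letters and are not evidence of binding. Promoter entries were found for 7 of the 10 subunits. Of those not shown, the entries of Itga3, which was called higher, hold 3 and 1 GC boxes. That of Itgb5, not called, holds 3, and that of Itga9, not called, holds 0. The Itga3 entry with 1 GC box and the Itga9 entry each hold 1 AP-1 match. Both entries lie inside the gene. That of Itga3 is at chr11:95069149-95069448, where the minus-strand gene is annotated to start at 95076801. That of Itga9 is at chr9:118711442-118711741, where the plus-strand gene starts at 118606690. The stretch at the annotated start of Itga9 was not among the entries. Itgb8 itself did not pass the test, and whether GC boxes go with the direction of change was not tested.

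Itga5, the alpha chain of the classical fibronectin receptor (chromosome 15, 103344286 to 103366763), showed the largest fall of the 10. It had 594.1, 439.2 and 461.4 normalized counts in the PDGFA libraries of mice 62, 68 and 69, and 3669.7, 3654.6 and 3658.8 in the EF libraries. The 3 EF values lay within a factor of 1.004 of each other and every PDGFA value was far below them. The means were 498.2 ± 83.8 in PDGFA and 3661 ± 7.80 in EF (SD, n = 3 each), a log2 change of -2.89 (SE 0.15, adjusted p = 2.38e-05), or a 7.35-fold lower mean. It passed the threshold in all 16 alternative analyses, with log2 changes between -3.02 and -2.80.

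Among the laminin receptors, Itga6 (chromosome 2, 71745616 to 71858416), which pairs with Itgb1 or Itgb4, fell. Its normalized count was 5111.9, 4100.2 and 4005.8 in PDGFA and 12409, 13230 and 19513 in EF for mice 62, 68 and 69, with mouse 69 the highest in EF. The log2 change was -1.75 (SE 0.21, adjusted p = 0.000578), a 3.42-fold lower mean, and it passed in all 16 alternatives (-1.88 to -1.55). The gene totals do not separate the splice forms of its cytoplasmic tail.

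Itga7 (chromosome 10, 128933818 to 128958282), a laminin receptor chain best known from muscle, did not pass the test. It read 1605.0, 1057.0 and 1771.3 in PDGFA and 1167.4, 2587.3 and 1780.8 in EF. The groups overlapped, and the pairs disagreed, with 1 mouse higher and 2 lower in PDGFA. The log2 change was -0.28 (SE 0.32, adjusted p = 0.513) and came to 0.0012 without the EF library of mouse 68.

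Itga3 (chromosome 11, 95044474 to 95076801), the third laminin-binding chain, was read at low levels. It had 64.5, 57.3 and 118.3 normalized counts in PDGFA and 18.2, 51.8 and 16.6 in EF, from 268 reads over the PDGFA libraries and 78 over the EF libraries. The lowest PDGFA library, of mouse 68, was barely above the EF library of the same mouse. Its log2 change of 1.56 (SE 0.53, adjusted p = 0.0492) lay at the threshold. With the mouse as a block the adjusted p was 0.0735, and 12 of 16 alternatives did not call it (0.0147 to 0.302 over all). Among these were the fits without EF 62 (adjusted p = 0.0976), EF 69 (0.116), PDGFA 62 (0.0992), PDGFA 68 (0.0884) and PDGFA 69 (0.165); without EF 68 it was called (0.0147).

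Itgb4 (chromosome 11, 115974709 to 116008412), the beta chain that joins Itga6 in the hemidesmosomes of epithelia, was the scarcest of the 10. It had 26.3, 25.8 and 39.4 normalized counts in PDGFA and 11.5, 5.63 and 8.95 in EF. The EF values came from 12, 5 and 7 reads, so counting error alone is large: the ratio of the pooled rates was 3.45 with a 95% counting interval of 2.20 to 5.63. The groups did not overlap, and the log2 change was 1.72 (SE 0.42, adjusted p = 0.0151). It did not pass without PDGFA 68 (adjusted p = 0.0529), without PDGFA 69 (0.0633) or without both libraries of mouse 68 (0.142). On the log2(count + 8) scale the change was 1.20. An annotated noncoding gene on the other strand, B230344G16Rik, shares 537 exon bases with Itgb4. It had no row in the table, and the strand setting of the counts was not given.

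Itgb1, the common beta chain that pairs with Itga3, Itga5, Itga6, Itga7, Itga9 and Itgav (chromosome 8, 128685654 to 128733200), also fell. It read 12258, 12678 and 12737 in PDGFA and 19045, 27303 and 29478 in EF. The PDGFA libraries lay within a factor of 1.04 of each other and the EF libraries within 1.55. The means were 12558 ± 261 in PDGFA and 25275 ± 5504 in EF, a log2 change of -0.98 (SE 0.20, adjusted p = 0.00638) beside -2.89, -1.75 and -1.76 for Itga5, Itga6 and Itgav. Whether these sizes differ between the genes was not tested. It passed in 15 of 16 alternatives, the exception being the fit without both libraries of mouse 68 (-0.92, adjusted p = 0.0849).

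Itgav (chromosome 2, 83724397 to 83806916), the alpha chain of the RGD-binding vitronectin receptors, fell as well. It read 3570.6, 3455.7 and 3925.1 in PDGFA and 10128, 18256 and 10163 in EF, with the EF library of mouse 68 well above the other EF libraries. The log2 change was -1.76 (SE 0.24, adjusted p = 0.00114), a 3.52-fold lower mean. Without EF 68 it was -1.48 (adjusted p = 0.000574), and all 16 alternatives called it. An annotated noncoding gene on the other strand, Gm13684, shares 634 exon bases with Itgav and had no row in the table.

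Of the beta chains known mainly as partners of Itgav, Itgb8 and Itgb5, neither passed the test. Itgb8 (chromosome 12, 119158022 to 119238802), which with Itgav holds and activates latent TGF-beta and is known in the brain for a role in its blood vessels, read 14607, 12817 and 12131 in PDGFA and 6214.2, 12090 and 5775.9 in EF. Every PDGFA library was above every EF library, by a narrow margin over EF 68. The log2 change was 0.80 (SE 0.28) and missed the threshold, with adjusted p = 0.0568. Without EF 68 it was 1.13 and passed (adjusted p = 0.00243), and without both libraries of mouse 68 it was 1.15 (0.0199). The other 14 alternatives did not call it, and the adjusted p ran from 0.00243 to 0.257.

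Itgb5 (chromosome 16, 33829665 to 33949338), another partner of Itgav, read 2233.0, 3137.7 and 3332.0 in PDGFA and 1154.0, 3480.1 and 2096.6 in EF. The groups overlapped through the EF library of mouse 68, the highest of the 6. Its log2 change was 0.49 (SE 0.38, adjusted p = 0.337), and 0.88 without EF 68 (0.0662). None of the 16 alternatives called it.

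Itga9 (chromosome 9, 118606690 to 118901003), a chain that binds tenascin-C and osteopontin, read 316.6, 259.7 and 170.2 in PDGFA and 253.8, 149.7 and 300.4 in EF. The groups overlapped, and the log2 change was 0.097 (SE 0.35, adjusted p = 0.844). An interval this wide does not show that the levels were alike.

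**Figure D2:**
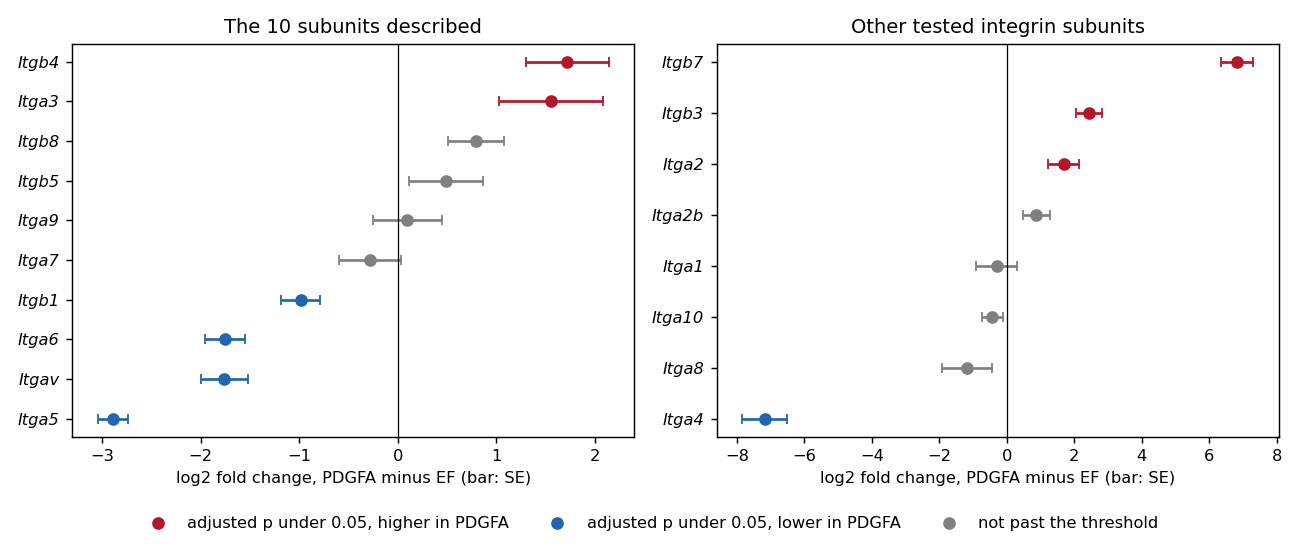
Log2 fold change, PDGFA minus EF, with its SE (horizontal axes), of the 10 subunits (left) and of the 8 other tested integrin subunits (right; the axes differ in range). Itga5 at -2.89 is the lowest of the 10 and Itgb4 at 1.72 the highest, and on the right Itga4 and Itgb7 lie at -7.18 and 6.83.

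**Figure D3:**
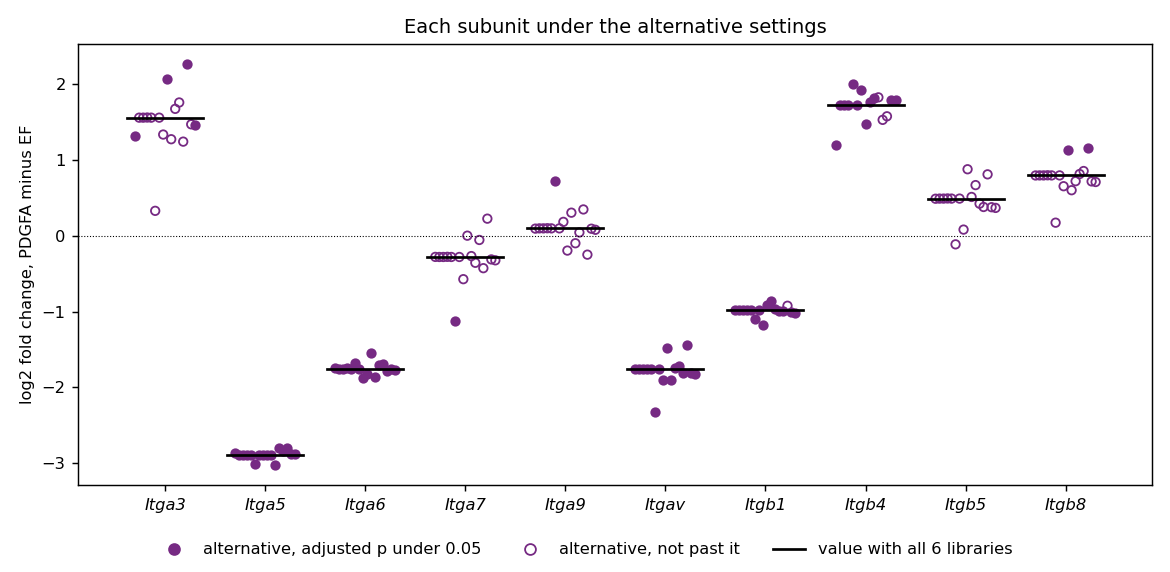
Log2 fold change of each of the 10 subunits, PDGFA minus EF (vertical axis), with all 6 libraries (black line) and under each alternative (circles; filled where the adjusted p is under 0.05). Itga5, Itga6 and Itgav are filled throughout, Itga3 is filled in 4 of 16, and Itga7, Itga9 and Itgb5 have circles on both sides of 0.

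To compare levels between subunits, each normalized count was divided by the exon length of its gene. On this per-kilobase scale Itgb1 had the highest level in both groups, 3077 ± 63.9 in PDGFA and 6193 ± 1350 in EF. In PDGFA the order continued with Itgb8 (1192 ± 116), Itgb5 (816.5 ± 165), Itga6 (488.2 ± 67.9), Itgav (339.8 ± 22.8), Itga7 (182.6 ± 46.2), Itga5 (101.0 ± 17.0), Itga9 (32.4 ± 9.59), Itga3 (14.0 ± 5.83) and Itgb4 (4.35 ± 1.10). No neighbours in that order overlapped between libraries. In EF the order after Itgb1 was Itga6 (1668 ± 431), Itgav (1196 ± 436), Itga5 (742.2 ± 1.58), Itgb8 (725.7 ± 319), Itgb5 (631.5 ± 329), Itga7 (228.0 ± 88.0), Itga9 (30.5, range 19.5 to 39.1), Itga3 (5.06 ± 3.48) and Itgb4 (1.24 ± 0.419). There Itga6 overlapped Itgav, Itga5 overlapped Itgb8, and Itgb8 overlapped Itgb5, so these neighbours do not differ beyond their spread.

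The summed per-kilobase level of the 6 alpha chains was 1270, 1039 and 1164 in the PDGFA libraries of mice 62, 68 and 69, and 3242, 4254 and 4112 in the EF libraries. That of the 4 beta chains was 4957, 5152 and 5161 in PDGFA and 5555, 8764 and 8337 in EF. Neither sum overlapped between the groups, and the distance between the groups was larger for the alpha chains. Itgb1 made up 60.5% ± 0.153 of the summed beta level in PDGFA and 82.3% ± 5.35 in EF, while Itgb8 made up 23.5% ± 2.82 in PDGFA and 9.62% ± 3.13 in EF. Of the summed alpha level, Itga6 made up 42.1% ± 3.51 in PDGFA and 43.2% ± 9.08 in EF, and Itga5 made up 8.69% ± 0.734 in PDGFA and 19.5% ± 3.03 in EF. The ratio of Itgb8 to Itgav per kilobase was 3.97, 3.60 and 3.00 in PDGFA and 0.596, 0.643 and 0.552 in EF, including 0.643 in the EF library of mouse 68, where both genes were high. These sums hold only the 10 subunits, and some chains outside them were large in 1 group. Per kilobase, Itga4 read 139.7, 184.4 and 904.7 in the EF libraries of mice 62, 68 and 69, and 1.97 ± 0.669 in PDGFA. Itgb7 read 245.7 ± 20.2 per kilobase in PDGFA and 2.08 ± 1.29 in EF. RNA levels do not show which chains were paired at the cell surface, and the shares were not tested.

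**Figure D4:**
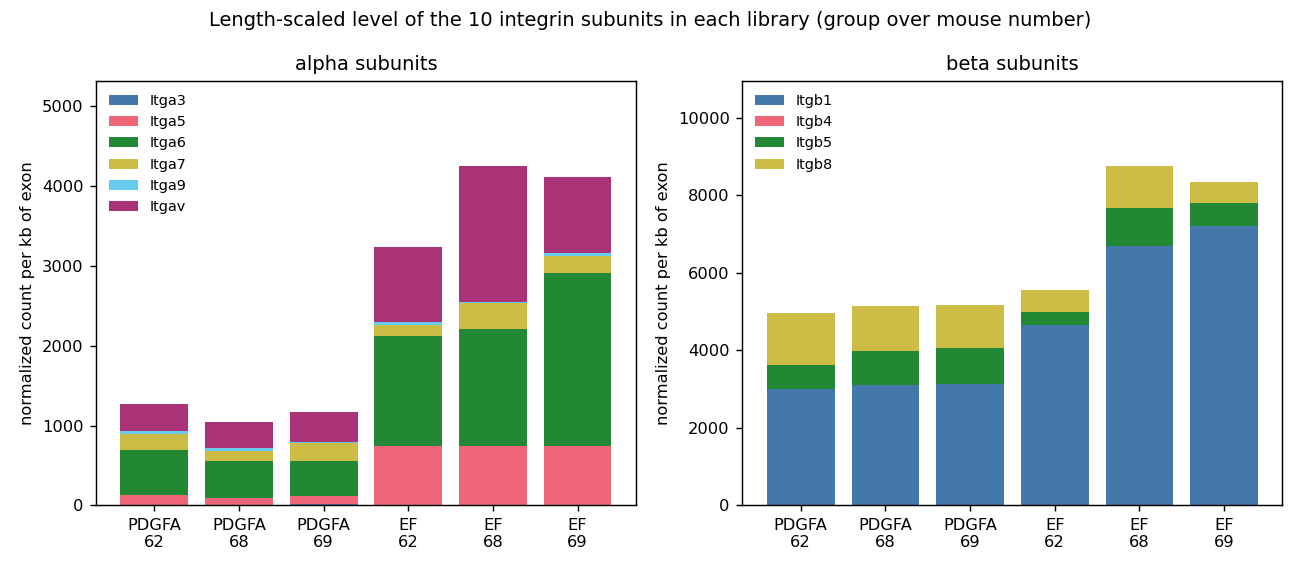
Normalized count per kilobase of exon (vertical axes) of the 6 alpha and 4 beta subunits, stacked by gene, in each library (PDGFA left of EF, mouse number below). The alpha stacks reach 1039 to 1270 in PDGFA and 3242 to 4254 in EF, and the beta stacks 4957 to 5161 in PDGFA and 5555 to 8764 in EF.

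The genes nearest in pattern to the subunit with the largest rise and the one with the largest fall were sought by the Euclidean distance of centred log2 values over the 6 libraries. Nearest to Itga5 were Rhoq, a small GTPase (distance 0.313), Abhd15 (0.335) and Fam217a (0.419). Rhoq read 2502, 2228 and 2228 in PDGFA and 19250, 19550 and 20120 in EF. Fam217a lay near the floor, at 2.546, 0.9549 and 1.792 in PDGFA and 19.15, 22.52 and 20.45 in EF, so its distance rests on few reads. Nearest to Itgb4 were Eps8l1 (0.283), Rbks (0.418) and Zfp784 (0.487). These distances are a description of 6 libraries in 2 groups.

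Among the other integrin subunits, 8 were tested, of which 3 rose and 1 fell, against 21.8% higher and 18.0% lower over all tested genes. Itga4 (chromosome 2, 79255426 to 79333123), a chain that pairs with Itgb1 or Itgb7 and binds fibronectin and VCAM-1, read 38.2, 23.9 and 20.6 in PDGFA and 1952.7, 2577.1 and 12646 in EF. The EF library of mouse 69 was several times the others, and all EF libraries were far above PDGFA. The log2 change was -7.18 (SE 0.66, adjusted p = 0.000191), and -6.34 without EF 69. Cerkl, on the other strand, shares 1124 exon bases with Itga4 and had no row in the table. The strand setting was not given, so reads of the pair may not be told apart there. Itgb7 (chromosome 15, 102215995 to 102231944), best known from leukocytes, where it pairs with Itga4 or Itgae, read 634.9, 742.9 and 663.9 in PDGFA and 1.92, 9.01 and 6.39 in EF. With only 15 EF reads in all, the ratio of pooled rates was 123 with a 95% counting interval of 74.3 to 220, and the log2 change was 6.83 (SE 0.48, adjusted p = 5.55e-05). Beside it, the microglial and leukocyte markers Csf1r and P2ry12 read at most 3.58 and 6.79 in any PDGFA library.

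Itgb3, which with Itgav forms a vitronectin receptor, read 124.8, 142.3 and 197.1 in PDGFA and 19.2, 42.8 and 24.3 in EF (log2 change 2.44, SE 0.39, adjusted p = 0.00235). Itga2, a collagen receptor chain, read 345.4, 415.4 and 654.0 in PDGFA and 230.8, 70.9 and 171.3 in EF, a log2 change of 1.68 (adjusted p = 0.0232). It did not pass without PDGFA 68 (0.0625), PDGFA 69 (0.0893) or both libraries of mouse 68 (0.0965). Itga1, Itga2b, Itga8 and Itga10 had log2 changes of -0.30, 0.87, -1.18 and -0.43, with adjusted p of 0.726, 0.117, 0.238 and 0.311. Itga10 shares 1739 exon bases with Gm42957 and Itga1 shares 685 with Gm49395, both on the same strand. Itga8 shares 372 with E030013I19Rik on the other strand, so the reads of Itga1, Itga8 and Itga10 are uncertain. Of the overlapping genes only Gm42957 had a row in the table. Without EF 62, Itga2b (1.29, adjusted p = 0.0087) and Itga8 (-2.03, 0.00924) passed. With array weights Itga1 (-0.98, adjusted p = 0.0166), Itga2b (0.86, 0.00153) and Itga8 (-1.36, 0.000941) passed. DESeq2 called Itga8 too (-1.63, adjusted p = 0.0388). Itgb2, Itgal, Itgae and Itga11 stayed below the filter on low values. Itgb2, the leukocyte beta chain, had 29 reads in PDGFA and 2 in EF, a ratio of 11.8 with a counting interval of 2.98 to 102.

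The machinery that couples integrins to actin moved in both directions. Of 25 tested genes 10 rose and 7 fell, and the median log2 change was 0.20, against shares of 21.8% and 18.0% over all tested genes. The parvins, which bind integrin-linked kinase, differed among themselves: Parvb had 16459 ± 707 normalized counts in PDGFA and 759.1 ± 79.4 in EF (4.44, SE 0.13, adjusted p = 7.87e-06), while Parva had 965.3 ± 140 in PDGFA and 2605 ± 391 in EF (-1.43, SE 0.18, adjusted p = 0.000709). Tns3, a tensin that binds beta tails, had 63354 ± 5256 in PDGFA and 4918 ± 1850 in EF (3.77), and the docking protein Bcar1 had 9178 ± 519 in PDGFA and 1221 ± 259 in EF (2.93). Lims1, an adaptor of integrin-linked kinase, and Rap1a, a GTPase of integrin activation, fell by 0.96 and 0.73 on the log2 scale (adjusted p = 0.00184 and 0.00998). Rap1a was not called without both libraries of mouse 68 (0.0652). Also named, after their values were seen, are Lims2, a relative of Lims1, and Ilk, the kinase itself, which both rose. Lims2 had 4083 ± 870 in PDGFA and 122.9 ± 182.5 in EF (6.52, adjusted p = 0.00372), and was called in all 16 alternatives. Its EF values were 27.8, 333.3 and 7.67 for mice 62, 68 and 69, so mouse 68 carried the EF mean. The log2 change of Lims2 ran from 3.95 to 7.99 over the alternatives. Ilk had a log2 change of 0.74 (adjusted p = 0.0106) and was called in 14 of 16. Of talins and kindlins, named after their values were seen, Tln1 had a log2 change of -0.51 (adjusted p = 0.0281; 0.0709 with the mouse as a block), Tln2 one of -0.17 (0.482) and Fermt2 one of 0.37 (0.0986). The kindlin Fermt3, best known from blood cells, was lower, with 54.3, 40.1 and 28.7 normalized counts in PDGFA and 129.3, 94.6 and 104.8 in EF (-1.43, adjusted p = 0.0137), a call lost without PDGFA 68 (0.0566), PDGFA 69 (0.0508) or both libraries of mouse 68 (0.108). Tln1 also lost its call without EF 68 (0.0597) and without PDGFA 62, 68 or 69 (0.0964, 0.123 and 0.0782).

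Of 5 proteins that restrain integrins, Sharpin rose by 0.57 (adjusted p = 0.013) and Flna fell by 0.58 (adjusted p = 0.0434), and Itgb1bp1, Dok1 and Krit1 did not pass. Over all tested genes 21.8% were called higher and 18.0% lower, so these calls are near the background. Flna lost its call under the mouse block (0.0967), and when EF 68, EF 69 or 1 of the PDGFA libraries was left out (0.0688 to 0.162). Flna was called in 8 of 16 alternatives, with adjusted p up to 0.24. Sharpin was not called without PDGFA 62 (0.0725) or PDGFA 68 (0.0639), and its adjusted p reached 0.154 over the 16 alternatives. Of 5 tetraspanins that associate with integrins, 2 rose, where 21.8% of all tested genes were called higher. Cd82 had 1271 ± 328 normalized counts in PDGFA and 85.3 ± 27.2 in EF (3.90, adjusted p = 8.47e-05). Cd63 rose by 0.62 (adjusted p = 0.0384), a call lost when any 1 EF library was left out (0.0553 to 0.0731), and without PDGFA 68 (0.0916) or PDGFA 69 (0.111).

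Of 9 tested laminin chains, the ligands of Itga3, Itga6 and Itga7, 4 fell and 2 rose, with a median of -1.04. Over all tested genes 18.0% were called lower and 21.8% higher. Lama5 had 1996 ± 410 in PDGFA and 15234 ± 802 in EF (-2.95, SE 0.17, adjusted p = 2.62e-05), Lama4 had 46.6 ± 18.4 in PDGFA and 2134 ± 355 in EF (-5.55), and Lamb1 had 120.5 ± 8.66 in PDGFA and 2335 ± 727 in EF (-4.21). Lama2, the chain whose loss causes a muscular dystrophy with white matter changes, had 298.0 ± 53.0 in PDGFA and 20.1 ± 1.66 in EF (3.81, adjusted p = 7.19e-05). Lama3 had 89.8 ± 47.2 in PDGFA and 9.82 ± 6.29 in EF (3.20, adjusted p = 0.00742; 2.53 without EF 69). Of 12 other matrix ligands, 4 fell and 2 rose, against the same shares over all tested genes, with a median of -0.033. Tnc, tenascin-C, a ligand of Itga9, had 9894 ± 3391 in PDGFA and 93917 ± 12390 in EF (-3.31), and Spp1, osteopontin, had 12.6 ± 7.64 in PDGFA and 853.1 ± 840 in EF (-5.66; -4.85 without EF 69, -6.44 without EF 62 and -5.03 without PDGFA 68). Hspg2, perlecan, fell by 2.48. Tnr, tenascin-R of the oligodendrocyte lineage, had 139440, 128880 and 105260 in PDGFA and 340.9, 6762 and 539.5 in EF, the highest EF value again in the library of mouse 68 (6.84; 8.17 without EF 68 and 6.02 without EF 62). Nid1 rose by 1.87 (adjusted p = 0.0235; 2.52 without EF 68), a call lost without EF 69 (0.067) and when any 1 PDGFA library was left out (0.0589 to 0.0806). Fn1, fibronectin, the ligand of Itga5, named after its values were seen, read 1074.5, 910.9 and 1188.9 in PDGFA and 1283.3, 4001.4 and 1201.7 in EF (-0.80, adjusted p = 0.182). Without EF 68 the log2 change of Fn1 was -0.24 (adjusted p = 0.325), and with array weights, which called it, -1.97.

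Of 8 tested genes of TGF-beta and the proteins that carry its latent form, 3 fell and 2 rose, with a median of 0.145. Over all tested genes the shares were 18.0% lower and 21.8% higher. Tgfb1 and Tgfb3, whose latent forms carry the RGD site that Itgav with Itgb8 binds, did not pass, with log2 changes of 0.63 (adjusted p = 0.348) and -0.22 (0.665). Tgfb2, whose latent form lacks that site, had 3808 ± 1111 in PDGFA and 1328 ± 370 in EF (1.52, adjusted p = 0.00328), and Ltbp3, a latent TGF-beta binding protein, rose by 0.99 (adjusted p = 0.00775), a call that was absent without both libraries of mouse 68 (0.0537). Ltbp1 and Ltbp4 fell by 2.76 and 1.68. Lrrc32, which displays latent TGF-beta on the cell surface, read 1.70, 6.68 and 2.69 in PDGFA and 316.0, 1439 and 401.4 in EF (-7.07, SE 0.66, adjusted p = 0.000196; -6.40 without EF 68).

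**Figure D5:**
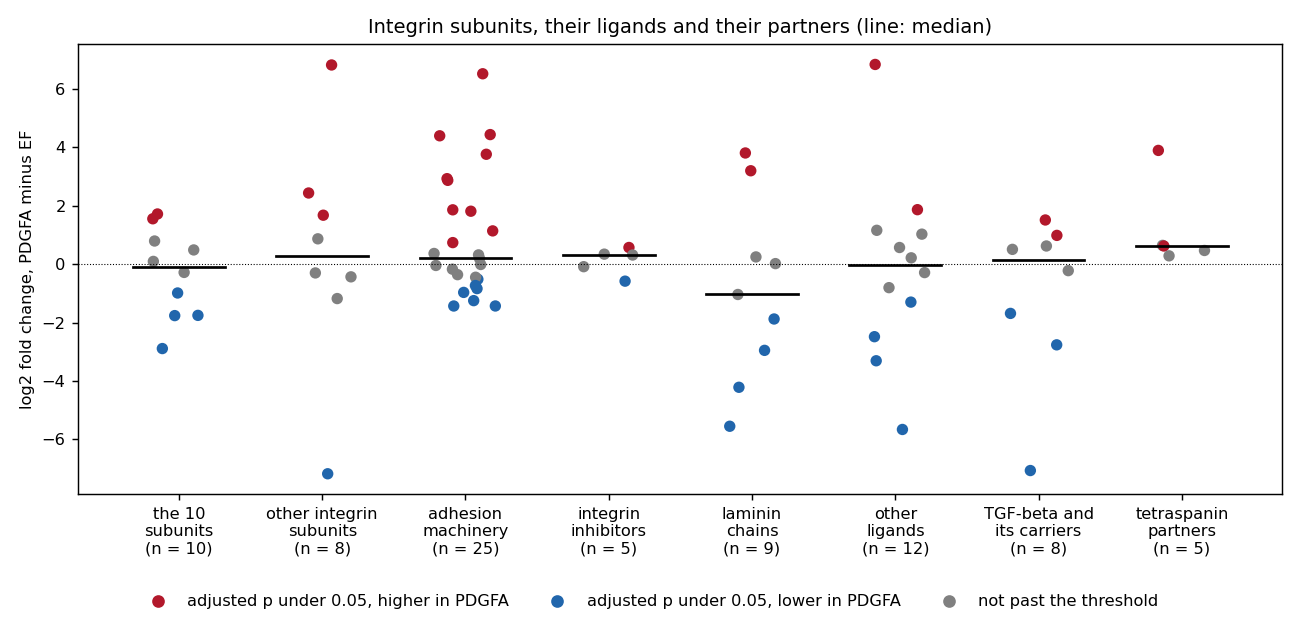
Log2 fold change, PDGFA minus EF (vertical axis), of each tested gene (points) in the 10 subunits and in 7 lists of related genes, with the median of each list (line); colours mark the adjusted p as in the legend. Laminin chains have a median of -1.04 and the other lists medians between -0.091 and 0.625.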

How the data were processed

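The authors deposited normalized counts, that is a signal per gene equal to read counts divided by 1 size factor per library, for 6 libraries. Per the submitters' processing notes, FastQC, STAR and DESeq2 are named with mm10 (GRCm38), no versions stated; annotation release and strand setting were not given in the sources used here. Dividing by the smallest value above 0 of each library gave whole reads for 100% of values (tolerance 0.001). The lowest gene total was 10 reads.

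Genes with a mean of at least 10 were tested as log2(value + 1) with limma 3.58.1 (mean trend, R 4.3.3), PDGFA minus EF, two-sided. Adjusted p-values are from limma unless edgeR 4.0.16 or DESeq2 1.42.0, run on the recovered reads, is named. The scale understates changes of genes with few reads. Counting intervals are exact binomial (95%) and cover counting error only. The labels name separate mice, shared by both groups, so mouse pairs the libraries; deviations of same-mouse libraries correlated at -0.091, 0.11 and -0.11. Replicates of a group all differed beyond counting noise (chi-square over its degrees of freedom, 21.9 to 155.4).

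Members and lists were chosen with earlier results of these data known. Named were the 10 subunits, the other integrin subunits, up to 3 called genes per direction with the smallest p in each list, and the 3 genes nearest to the subunit with the largest rise and to that with the largest fall. GENCODE M21, joined on the symbol, gave GRCm38 coordinates and exon-union lengths.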

Additional observations from a re-analysis of the deposited data

How the results depend on the processing

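There were 16 alternatives for each of the 10 subunits, except 15 for Itgb4, which a mean of at least 50 leaves out. Of these 159 values, 133 kept their direction and their side of the threshold, 16 lost a call, 4 gained one and 6 changed sign, none of the 6 with a call. The count of 4 subunits lower was 3 without both libraries of mouse 68, 5 with array weights and 4 in the rest. The count of 2 higher was 1 with no filter, with TMM scaling, with no mean trend, in edgeR and with the mouse as a replicate block, and 0 with a mean of at least 50. It ran from 0 to 3 without single libraries, with 0 without PDGFA 68 or PDGFA 69, 1 without EF 62, EF 69 or PDGFA 62, and 3 without EF 68. Among the 10, the block changed the call of Itga3 only. Without single libraries the log2 change ran from -0.57 to 0.0012 for Itga7 (0.0012 without EF 68), from -0.20 to 0.35 for Itga9 (below 0 without EF 68, and -0.098 without PDGFA 62) and from -0.83 to 0.19 for Itga1 (above 0 without EF 68, at 0.053, or PDGFA 62). Without both libraries of mouse 68 these 3 were 0.23, -0.25 and 0.059. With array weights Itgb5 was -0.11, Itga3 was 0.33, and Itga7 (-1.13) and Itga9 (0.72) were called. Over all tested genes, 3720 higher and 3076 lower became 6328 and 5921 with array weights, 2306 and 1855 without PDGFA 68 (2306 to 4213 and 1855 to 3848 without single libraries), and 1945 and 1335 without both libraries of mouse 68. The cause of these shifts was not tested. Among the 10, Itgb4 and Itga3 had the fewest EF reads, 24 and 78 in all.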
